A study of Arabidopsis thaliana with 48 samples.

Results

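The ZAT and AZF genes described here are 10 genes of Arabidopsis thaliana that encode zinc finger transcription regulators of the C1-2i type: ZAT5, ZAT6, ZAT7, ZAT8, ZAT10, ZAT11, ZAT12, ZAT18, AZF1 and AZF2. They were chosen by name and locus, with earlier results of these data known, and are 10 of the 32833 genes in each table. The study asked how transcripts changed within minutes in a leaf placed in excess light and in a distant, untreated leaf of the same plant, and how these changes differed in plants that lack the NADPH oxidase RBOHD. Wild type Col plants (WT) and rbohD knockout plants of the same ecotype, 4 to 5 weeks old, were grown at 23 °C in days of 8 h light and 16 h dark at 50 µmol m-2 s-1. A local leaf was exposed to 2000 µmol m-2 s-1 for 0, 2, 4 or 8 min, and local and untreated systemic leaves were collected at those times, each library from leaves pooled over many plants. Genotype, leaf and time gave 16 groups of 3 biological replicates, 48 libraries in all. WT and rbohD were labelled as separate experiments, so genotype and experiment cannot be told apart.

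C2H2 zinc finger proteins of this type bind DNA through their fingers, and most of them also carry a short EAR motif through which they recruit corepressors and repress transcription. In leaves, reactive oxygen species made by enzymes such as RBOHD at the plasma membrane spread from cell to cell as a wave that connects a stressed leaf with distant leaves. Several ZAT genes are known for rapid induction by light stress, cold, salt and hydrogen peroxide, and ZAT12 and ZAT10 are widely used as reporters of reactive oxygen signalling.

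Each table held normalized counts, that is read counts divided by a size factor of the library, for 12 libraries of 1 genotype and leaf. Whole reads could be recovered, and libraries held 13412657 to 28675623 reads. WT libraries held 18311884 to 28675623 reads and rbohD libraries 13412657 to 21834017. Levels of WT and rbohD given side by side therefore also carry this difference in depth. Levels are given below as normalized counts, and changes as log2 differences of the normalized count plus 1 with their standard error (SE), tested with limma and adjusted over all genes tested in the table at a threshold of 0.05. The tables were normalized separately, so that levels were not tested across tables. The 5 leaf markers (RBCS1A, CAB1, LHCB2.1, CA1 and RCA) had 51505 normalized counts or more in every library. The 2 root markers (PYK10 and BGLU21) summed to 7.34 to 308 normalized counts and the 2 flower markers (AP3 and PI) to 0 to 23.8, and the part of other organs in the results was not tested. RBOHD itself had 1096 to 2153 normalized counts in WT libraries and 337 to 697 in rbohD libraries. The part of the transcript that those reads came from was not examined.

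All 10 genes matched the RefSeq annotation of the TAIR10.1 assembly, in which none overlapped another gene. ZAT7 (AT3G46090, chr3:16925881-16926883) and ZAT8 (AT3G46080, chr3:16922514-16923299) lie on the minus strand of chromosome 3 with 2581 bases and 1 other annotated gene between them, and their coding sequences were identical at 93.6% of 486 aligned bases. The next closest pairs were ZAT6 with ZAT10 at 77.7% and ZAT8 with ZAT12 at 74.4%. No stretch of 75 bases, the length of the reads, of any of the 10 transcripts occurred a further time in the genome. Reads were aligned with mismatches allowed, however, so a share of the ZAT7 and ZAT8 reads may have been assigned to the wrong copy, and their values are uncertain to that extent. The other positions were chr1:9648021-9649323 for ZAT10 (AT1G27730), chr5:24102814-24103794 for ZAT12 (AT5G59820), chr5:1216058-1217362 for ZAT6 (AT5G04340), chr2:12023940-12025370 for ZAT5 (AT2G28200), chr5:26918765-26920179 for AZF1 (AT5G67450), chr3:6802903-6804296 for AZF2 (AT3G19580), chr2:15706285-15707224 for ZAT11 (AT2G37430) and chr3:19875375-19876177 for ZAT18 (AT3G53600). AZF2 had 2 exons, and each of the others was a single exon.

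The 250 bases upstream of the annotated start are shown for ZAT7 and ZAT8, whose transcripts followed similar courses, and for ZAT10 and ZAT12. The latter had the highest mean levels per length at 8 min in the WT local leaf. ZAT6, whose window is not shown, was not separated from ZAT12 in this level (824 against 827 normalized counts per kb). Sequences are from TAIR10.1, 5′ to 3′ on the strand of the gene, and capitals mark TTGAC or its reverse complement GTCAA (the core of the W-box bound by WRKY factors) and CGCG (the core of the box bound by calmodulin-binding CAMTA factors).
ZAT7, chr3:16926884-16927133, minus strand: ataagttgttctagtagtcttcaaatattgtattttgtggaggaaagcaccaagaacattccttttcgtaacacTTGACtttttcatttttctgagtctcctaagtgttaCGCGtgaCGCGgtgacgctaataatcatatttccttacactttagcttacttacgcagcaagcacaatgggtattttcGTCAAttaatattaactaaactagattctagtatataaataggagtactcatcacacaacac
ZAT8, chr3:16923300-16923549, minus strand: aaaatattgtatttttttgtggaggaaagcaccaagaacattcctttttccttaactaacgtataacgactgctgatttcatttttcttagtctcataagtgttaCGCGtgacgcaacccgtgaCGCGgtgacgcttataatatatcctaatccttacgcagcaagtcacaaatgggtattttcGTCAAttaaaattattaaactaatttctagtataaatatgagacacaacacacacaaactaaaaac
ZAT10, chr1:9649324-9649573, minus strand: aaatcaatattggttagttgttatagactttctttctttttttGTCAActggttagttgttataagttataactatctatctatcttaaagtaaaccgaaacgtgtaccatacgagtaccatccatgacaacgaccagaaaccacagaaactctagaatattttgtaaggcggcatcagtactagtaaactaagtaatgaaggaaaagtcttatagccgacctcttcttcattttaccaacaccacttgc
ZAT12, chr5:24102564-24102813, plus strand: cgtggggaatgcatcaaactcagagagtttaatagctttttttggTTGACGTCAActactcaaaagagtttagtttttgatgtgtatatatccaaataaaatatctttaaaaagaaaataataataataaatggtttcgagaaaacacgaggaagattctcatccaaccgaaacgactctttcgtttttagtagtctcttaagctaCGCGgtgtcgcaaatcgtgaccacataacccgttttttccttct
ZAT7 and ZAT8 each held 2 CGCG matches, and ZAT12 held 1. CGCG was present upstream of 3 of the 10 genes and of 10.1% of 27443 protein-coding genes in windows of the same length. TTGAC, on either strand, was present upstream of 9 of the 10, the exception being ZAT6, and of 44.9% of all. The longer CGCGTT and the G-box CACGTG were in none of the 10 windows, and in 2.59% and 6.49% of all windows. GAANNTTC, a form of the heat shock element, was in 5 of 10 against 9.55% of all, and the DRE core CCGAC in 4 of 10 against 11.97%. The windows of ZAT7 and ZAT8 share the letters around CGCG, GTCAA and GAANNTTC matches, so these near copies are not separate occurrences in the counts. These matches are a description of the letters in these windows.

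ZAT10, also named STZ, is a repressor known from salt, drought and light stress. In the WT local leaf it had 77.6, 98.8 and 70.1 normalized counts at 0 min, 366, 318 and 342 at 2 min, 330.03, 326 and 264 at 4 min and 2711, 2384 and 2490.1 at 8 min. The values at 2, 4 and 8 min all lay above those at 0 min, and those at 8 min lay far above the rest. The log2 change from 0 min was 2.06 (SE 0.10, adjusted p = 4.6e-14) at 2 min and 4.94 (SE 0.10, adjusted p = 5.3e-21) at 8 min, a 30.7-fold rise. In bulk leaf RNA, a change in RNA per cell and a change in the share of cells that express a gene cannot be told apart. In the WT systemic leaf, which received no excess light, ZAT10 had 74.2, 46.2 and 47.8 at 0 min, 220.5, 198 and 230.1 at 2 min, 134, 133 and 138 at 4 min and 857, 807 and 859 at 8 min. It rose by 2 min, came partly down by 4 min (log2 change from 2 min -0.67, SE 0.12, adjusted p = 7.5e-05) and rose again by 8 min to 15.1 times the 0 min level (log2 3.92, SE 0.12, adjusted p = 8.7e-17). In the rbohD local leaf the values were 69.6, 75.4 and 56.9, 205, 196 and 203, 175, 169.8 and 198 and 686, 691 and 631 at 0, 2, 4 and 8 min. The shape was that of WT, with a smaller rise at 8 min (9.87-fold, log2 3.30, SE 0.09, adjusted p = 1.7e-22). Systemic leaves of rbohD had 55.3, 33.5 and 42.8, 167, 127 and 188, 93.6, 126 and 132 and 115, 124 and 145. Here ZAT10 rose at 2 min as well and did not pass the test between 4 and 8 min (log2 0.14, SE 0.15, adjusted p = 0.57). The call of its fall between 2 and 4 min in this leaf (log2 -0.45, adjusted p = 0.011) was lost without the 2 min replicate 3 (adjusted p = 0.091) or the 4 min replicate 1 (adjusted p = 0.12).

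ZAT12, also named RHL41 for its response to high light, is required in Arabidopsis for full expression of cytosolic ascorbate peroxidase APX1 under oxidative stress. In the WT local leaf it had 21.7, 21.8 and 12.99 normalized counts at 0 min, 82.5, 79.1 and 62.98 at 2 min, 85.7, 93.7 and 88.8 at 4 min and 791, 813 and 829 at 8 min. The 0 min and 2 min values did not overlap, and the 8 min values stood 42.0-fold above 0 min (log2 5.39, SE 0.15, adjusted p = 2.6e-18). In the rbohD local leaf it had 2.21, 7.65 and 6.42 at 0 min, 42.7, 33.6 and 45.1 at 2 min, 53.3, 69.1 and 71.03 at 4 min and 280.3, 261 and 245 at 8 min. The 8 min rise there was 44.5-fold on this scale (log2 5.47, SE 0.24, adjusted p = 1.6e-17), from a 0 min level of a few reads. In the WT systemic leaf it had 9.68, 6.88 and 6.69, 17.2, 20.97 and 21.02, 23.5, 13.8 and 17.9 and 111, 114 and 110.1 at 0, 2, 4 and 8 min. Most of the systemic rise fell between 4 and 8 min (log2 2.57, SE 0.23, adjusted p = 1e-08), and at 8 min the log2 change from 0 min was 3.71 (SE 0.23, adjusted p = 1.2e-11). Systemic leaves of rbohD had 7.502, 5.24 and 6.59, 25.7, 16.1 and 24.5, 16.1, 15.95 and 24.9 and 13.4, 10.8 and 14.5. They rose by 2 min (log2 1.62, SE 0.30, adjusted p = 1.3e-05), and at 8 min were 0.90 above 0 min on the log2 scale (adjusted p = 0.039). That last call was lost with a pseudocount of 5, without the filter on low values, with edgeR, with only the groups compared in the fit, and without any 1 of 4 libraries (adjusted p = 0.066 to 0.14), and DESeq2 gave it no adjusted p.

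ZAT6 takes part in phosphate and cadmium responses and is a substrate of the kinase MPK6. In the WT local leaf it had 91.3, 84.3 and 80.5 normalized counts at 0 min, 209, 173 and 159.9 at 2 min, 150.3, 174 and 141 at 4 min and 1161, 991 and 1073 at 8 min. The 2 and 4 min values overlapped each other and lay above those at 0 min, and the 8 min level was 12.4-fold that at 0 min (log2 3.64, SE 0.10, adjusted p = 1.8e-18). In the rbohD local leaf it had 47.5, 43.7 and 42.2, 112, 84.03 and 94.98, 132, 136 and 141 and 432, 468 and 508 at 0, 2, 4 and 8 min. Each time point after 0 min lay above the one before it, up to 10.3-fold at 8 min (log2 3.37, SE 0.11, adjusted p = 6.8e-21). In the WT systemic leaf the values were 66.7, 45.2 and 57.3, 126, 138 and 125, 69.6, 95.4 and 96.9 and 229.8, 206 and 238. Those of the rbohD systemic leaf were 30.9, 33.5 and 27.4, 76.1, 66.4 and 78.4, 67.4, 72.2 and 55.9 and 35.3, 56.8 and 64.3. The WT systemic level at 8 min was 3.97-fold that at 0 min (log2 1.99, SE 0.14, adjusted p = 1.1e-10). In rbohD the 8 min change was 0.71 (SE 0.18, adjusted p = 0.0053), a call that was lost without the 8 min replicate 3 (adjusted p = 0.078).

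**Figure D1:**
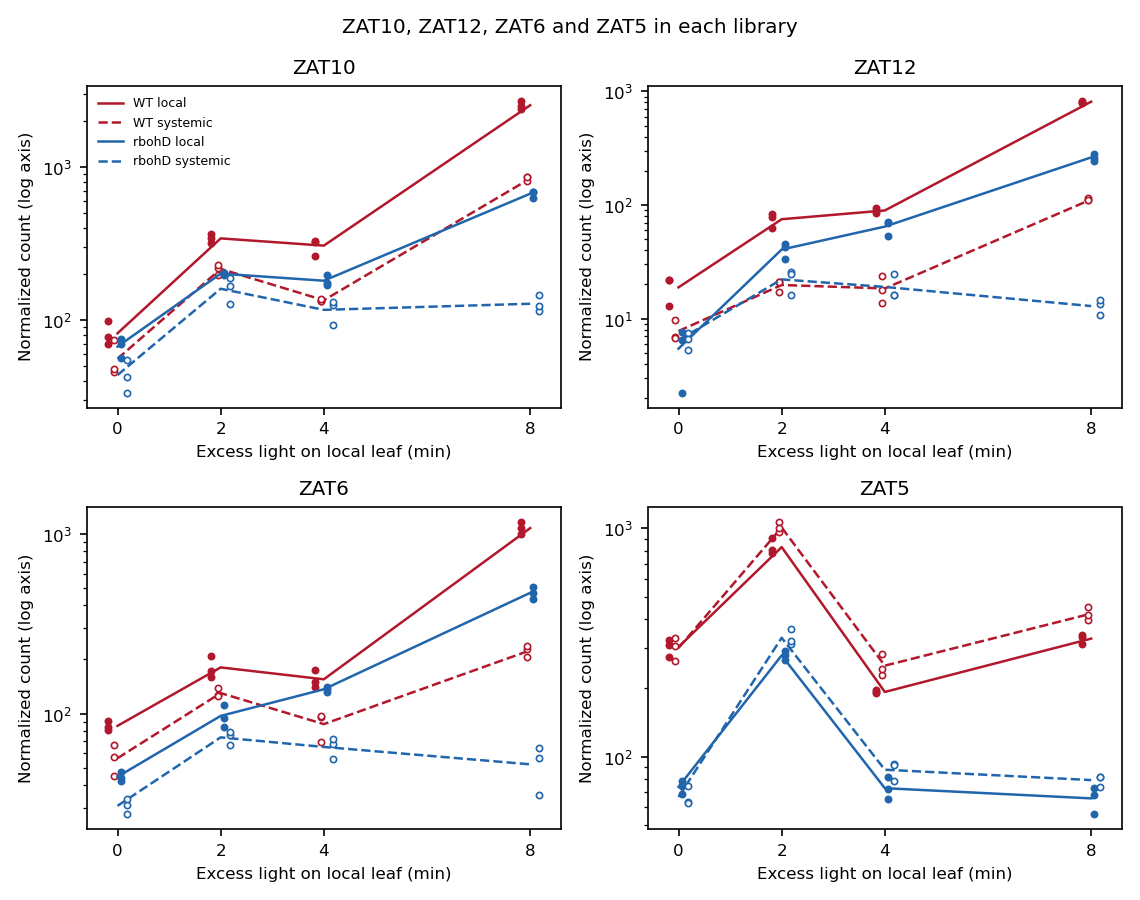
Normalized count (log axis) of ZAT10, ZAT12, ZAT6 and ZAT5 against minutes of excess light on the local leaf. Points are libraries (3 per group, drawn side by side), lines join group means, red is WT, blue is rbohD, filled points and solid lines are local leaves, open points and dashed lines systemic leaves. ZAT10, ZAT12 and ZAT6 were highest at 8 min in the WT local leaf, and ZAT5 was highest at 2 min in all 4 tables.

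ZAT5 differed from the rest in its timing. It had 324, 274 and 308 normalized counts at 0 min in the WT local leaf, 905, 778 and 802 at 2 min, 191, 195 and 189 at 4 min and 335, 312 and 339.9 at 8 min. It was thus high at 2 min and below the 0 min values at 4 min. At 8 min 2 of the 3 values lay above every 0 min value, and the change from 0 min did not pass the test (log2 0.12, adjusted p = 0.18). The WT systemic leaf had 307, 261 and 329.7, 1066, 961 and 1002, 228, 241 and 281 and 453, 398 and 418 at these times. In rbohD the local leaf had 68.5, 74.3 and 77.96, 265, 289 and 279, 64.9, 72.1 and 80.9 and 67.8, 55.7 and 73.1. The rbohD systemic leaf had 74.1, 62.9 and 62.6, 312, 320.4 and 363, 92.5, 77.9 and 92.2 and 73.5, 81.3 and 81.7. In all 4 tables the 2 min values lay above every other value of the table. The log2 rise at 2 min was 1.45 (SE 0.07) and 1.76 (SE 0.09) in WT local and systemic leaves, and 1.90 (SE 0.12) and 2.30 (SE 0.11) in rbohD, with the highest adjusted p at 8.1e-14. From 2 to 4 min ZAT5 fell, with log2 changes of -2.10, -2.01, -1.92 and -1.91 in the same order, with the highest adjusted p at 5.8e-14. Between 4 and 8 min it rose in WT, by 0.77 locally (SE 0.07, adjusted p = 1.6e-08) and 0.76 systemically (SE 0.09, adjusted p = 2.5e-07), and in rbohD both changes were -0.15 and did not pass the test (adjusted p = 0.41 in each). At 4 min ZAT5 was below 0 min in the WT local leaf (log2 -0.65, adjusted p = 6.7e-07). The smaller fall in the WT systemic leaf (log2 -0.26, adjusted p = 0.028) lost its call when libraries were rescaled to one total, with only the groups compared, and without any 1 of 4 libraries (adjusted p = 0.076 to 0.15). In the rbohD systemic leaf ZAT5 was above 0 min at 4 min (log2 0.39, SE 0.11, adjusted p = 0.009), a call that was lost with DESeq2 (adjusted p = 0.083), and the rbohD local change was -0.02 (adjusted p = 0.9).

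ZAT7 is known as a repressor linked to salt tolerance. It had 123, 131 and 125 normalized counts at 0 min in the WT local leaf, 266, 227 and 291 at 2 min, 219.6, 248 and 246 at 4 min and 516, 519.7 and 554 at 8 min. The WT systemic leaf had 31.2, 17.7 and 22.9, 33.4, 66.1 and 46.5, 103, 105 and 120.1 and 334, 280.3 and 272. The systemic leaf began at lower counts and climbed at each step, to 12.1-fold at 8 min (log2 3.60, SE 0.20, adjusted p = 1.3e-12), against 4.16-fold in the local leaf (log2 2.06, SE 0.09, adjusted p = 5.1e-15). In rbohD the order in time was another. The local leaf had 25.4, 31.7 and 21.1, 247, 211 and 235, 251, 185 and 225 and 164, 166 and 171, and was highest at 2 and 4 min (log2 3.12 at 2 min, SE 0.13, adjusted p = 5e-19). The systemic leaf had 17.8, 12.6 and 14.3, 72.03, 76.1 and 84.6, 62.4, 76.9 and 89.1 and 10.5, 13.7 and 10.8. There ZAT7 rose 4.98-fold by 2 min (adjusted p = 9.6e-13) and fell between 4 and 8 min by 2.60 on the log2 scale (SE 0.21, adjusted p = 4.9e-13), to values that overlapped those at 0 min or lay below them (log2 change from 0 min -0.32, adjusted p = 0.36).

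ZAT8, the near copy of ZAT7, was lower in counts. It had 21.7, 20.9 and 15.6 normalized counts at 0 min in the WT local leaf, 55.03, 38.4 and 48.98 at 2 min, 19.97, 26.5 and 41.2 at 4 min and 106, 93.4 and 114 at 8 min. The WT systemic leaf had 2.15, 0.983 and 3.82, 10.1, 7.34 and 11.1, 10.3, 16.7 and 13.7 and 46.9, 58.2 and 50.8. Both WT leaves were highest at 8 min, with a log2 change of 2.38 (SE 0.22, adjusted p = 9e-09) locally and 4.08 (SE 0.34, adjusted p = 1.7e-09) systemically, the latter from a 0 min level of a few reads. The rbohD local leaf had 3.31, 5.47 and 3.67, 36.6, 25.2 and 30.7, 39.7, 36.5 and 37.99 and 23.9, 13.9 and 15.5. The rbohD systemic leaf had 1.88, 2.096 and 1.098, 15.4, 12.9 and 14.7, 11.1, 15.95 and 10.4 and 0.955, 3.92 and 0.723. As for ZAT7, the rbohD leaves were highest at 2 and 4 min. In the rbohD systemic leaf no 0 min library held more than 2 reads, so the level at 2 min was at least 4.35-fold higher and that at 4 min at least 3.78-fold higher than a floor of 3 reads per library, and no fold is given at 8 min, when the mean was under that floor.

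AZF1 and AZF2 repress genes of the abscisic acid and auxin responses. AZF1 had 69.6, 93.4 and 70.1 normalized counts at 0 min in the WT local leaf and 107, 112 and 150.3 at 8 min, and 31.2, 21.6 and 21.03 and 139.7, 122 and 128 in the WT systemic leaf. The WT local change at 8 min was 0.65 on the log2 scale (SE 0.15, adjusted p = 0.00094) and the WT systemic change 2.37 (SE 0.17, adjusted p = 2e-10). In the local leaf AZF1 did not pass the test at 2 min (log2 0.32, adjusted p = 0.060), a call that was gained when libraries were rescaled to one total (log2 0.49, adjusted p = 0.006) or without any 1 of 3 libraries (adjusted p = 0.013 to 0.045). AZF1 in the rbohD local leaf had 22.1, 26.2 and 25.7, 75.3, 53.6 and 92.1, 87.2, 61.2 and 63.6 and 39.9, 51.1 and 50.2 at 0, 2, 4 and 8 min. The rbohD systemic leaf had 24.4, 13.6 and 18.7, 30.9, 38.6 and 46.6, 26.2, 30.03 and 27.96 and 13.4, 9.797 and 14.5. Both rbohD leaves rose by 2 min (log2 1.51, SE 0.19, adjusted p = 4.3e-08 and log2 1.01, SE 0.25, adjusted p = 0.00058), and the systemic leaf fell by 1.12 between 4 and 8 min (SE 0.25, adjusted p = 0.00075). AZF1 also rose in the WT systemic leaf, by 0.70 at 2 min (adjusted p = 0.0016) and 1.31 at 4 min (adjusted p = 4.6e-06). The WT minus rbohD difference at 2 min did not pass the test in the systemic leaf (log2 -0.31, adjusted p = 0.38). It passed in the local leaf (log2 -1.19, adjusted p = 0.00011).

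AZF2 had the lowest ratio of highest to lowest value among the 8 tested genes (35.3 to 191 normalized counts over the 48 libraries). This ratio pools 4 separately normalized tables. In the WT local leaf it had 86.8, 97.01 and 89.2 at 0 min, 145, 148 and 127 at 2 min, 77.5, 91.5 and 84.5 at 4 min and 170.3, 137 and 191 at 8 min. It rose, returned to the 0 min range and rose again (log2 0.61, adjusted p = 0.00013 at 2 min; log2 -0.11, adjusted p = 0.57 at 4 min; log2 0.85, adjusted p = 5.5e-06 at 8 min). In the WT systemic leaf it had 68.9, 38.3 and 50.7, 109, 124 and 128, 70.5, 75.8 and 80.1 and 159, 157 and 159. The change at 8 min was 1.61 (SE 0.15, adjusted p = 1.3e-08), and the call at 4 min (log2 0.55, adjusted p = 0.0092) was lost without the 0 min replicate 2 (adjusted p = 0.076). In rbohD its range was 42.6 to 88.4 in the local and 35.3 to 76.9 in the systemic leaf. AZF2 rose in rbohD at 2 and 4 min, with log2 changes of 0.78 (SE 0.15, adjusted p = 3e-05) and 0.87 (SE 0.15, adjusted p = 1.4e-05) in the local leaf and 0.63 (SE 0.17, adjusted p = 0.0014) and 0.85 (SE 0.17, adjusted p = 0.00014) in the systemic leaf. The rbohD changes at 8 min, 0.29 in the local and 0.13 in the systemic leaf, did not pass the test (adjusted p = 0.12 and 0.71).

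**Figure D2:**
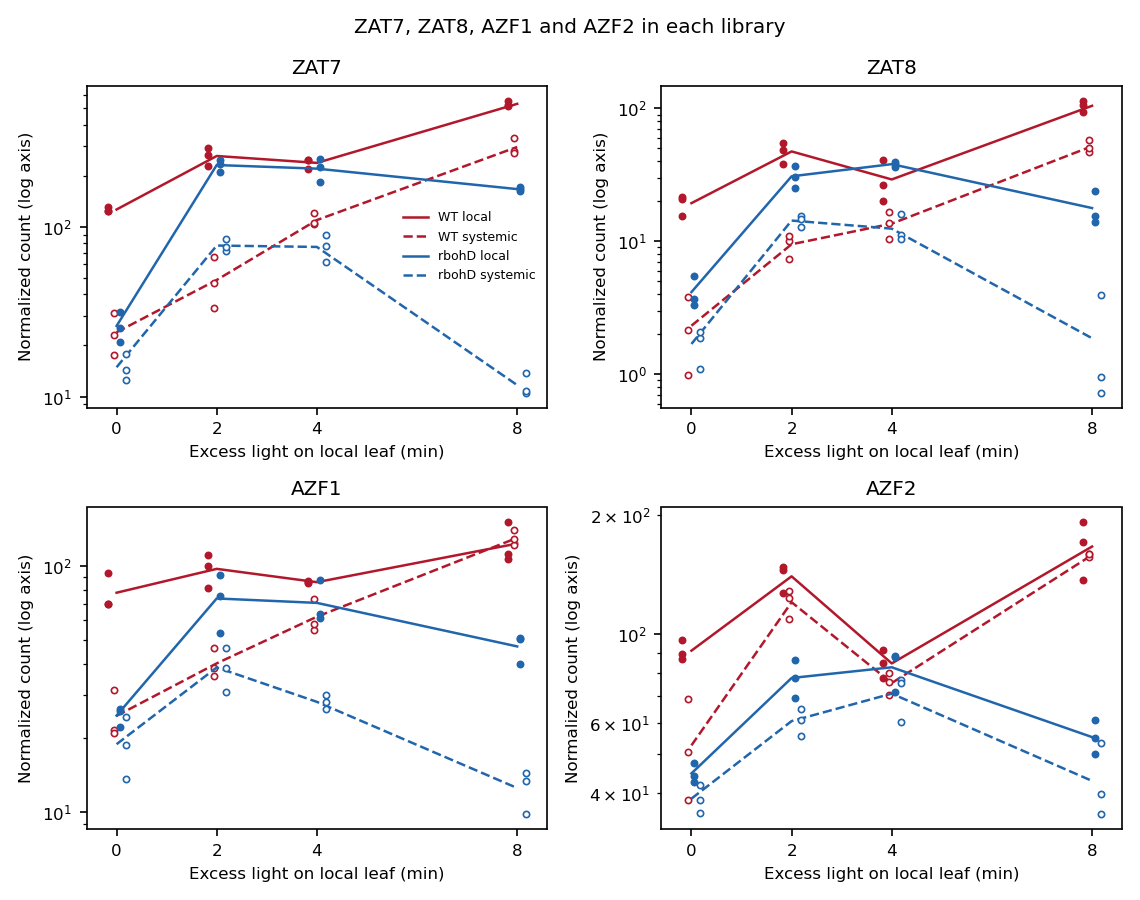
Normalized count (log axis) of ZAT7, ZAT8, AZF1 and AZF2 against minutes of excess light on the local leaf. Points are libraries (3 per group, drawn side by side), lines join group means, red is WT, blue is rbohD, filled points and solid lines are local leaves, open points and dashed lines systemic leaves. Between 4 and 8 min all 4 genes fell in the rbohD systemic leaf and all 4 rose in the WT systemic leaf.

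ZAT11, tied to hydrogen peroxide-induced cell death, and ZAT18, tied to drought tolerance, were close to the limit of detection. ZAT11 had 0 to 6.998 normalized counts and no read in 7 of 48 libraries. ZAT18 had 0 to 1.23 normalized counts, never more than 1 read, and none in 42 of 48 libraries. Genes were tested where 3 or more libraries of the table reached 10 normalized counts, which neither gene did in any table, and changes of these genes were not detectable at this depth.

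The 8 tested members are counted here against all genes tested, since a large share of all genes changed in these tables. In the WT local leaf 7 of 8 rose at 2 min, when 33.4% of all tested genes were raised. At 4 min 4 rose and ZAT5 fell, against 13% of all genes raised and 10.8% lowered, and at 8 min 7 of 8 rose against 22.9%. All 8 rose in the WT systemic leaf at 2 min against 30.4% of all genes. At 4 min 7 rose and ZAT5 fell, against 13.9% raised and 14.1% lowered, and at 8 min 8 of 8 rose against 21.8%. In the rbohD local leaf 8, 7 and 6 of the 8 rose at 2, 4 and 8 min, against 35.5%, 25% and 19.1% of all genes. Of the 8, in the rbohD systemic leaf 8, 7 and 3 rose, against 31.8%, 13.5% and 7.51%, and the 3 were ZAT10, ZAT12 and ZAT6. This last count was 1 without the rbohD systemic 8 min replicate 3. The median log2 change of the 8 members at 8 min was 2.22 in the WT local, 2.99 in the WT systemic, 2.25 in the rbohD local and 0.19 in the rbohD systemic leaf, and the median over all tested genes lay within 0.1 of 0 in each. Rescaling libraries to one total took the median over all genes between 2 and 4 min in the WT local leaf from -0.01 to -0.19 on the log2 scale, the largest such move over the comparisons made, and turned no direction of a called member.

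Successive times were compared next. From 2 to 4 min, none of the 8 rose and 3 fell in the WT local leaf (ZAT5, ZAT8 and AZF2), when 65.2% of all genes changed in either direction. That count became 7 when libraries were rescaled to one total, with ZAT6, ZAT7, ZAT10 and AZF1 added, and the ZAT8 fall (adjusted p = 0.0062) was lost without the 4 min replicate 1 (adjusted p = 0.058). Among WT systemic leaves 2 rose (ZAT7 and AZF1) and 4 fell, against 59.7%. In the rbohD local leaf 2 rose (ZAT6 and ZAT12) and ZAT5 fell, against 54.1%, with the ZAT12 call (adjusted p = 0.023) lost without the filter and without any 1 of 3 libraries. In the rbohD systemic leaf ZAT5 and ZAT10 fell, against 54.9%, with the ZAT10 call lost without the 2 min replicate 3 or the 4 min replicate 1 (adjusted p = 0.091 and 0.12). From 4 to 8 min, by contrast, 8 of 8 rose in the WT local leaf and 8 of 8 in the WT systemic leaf. Of all tested genes 38.9% and 40% changed in either direction, with 3423 of 18055 and 3905 of 18140 raised. The AZF1 rise in the WT local leaf (log2 0.50, adjusted p = 0.0095) was lost without the 8 min replicate 3 (adjusted p = 0.091). In the rbohD local leaf ZAT10, ZAT12 and ZAT6 rose and ZAT7, ZAT8, AZF1 and AZF2 fell, against 28.1%. Of these falls, that of ZAT7 (log2 -0.39, adjusted p = 0.022) was lost without any 1 of 4 libraries and that of AZF1 (log2 -0.57, adjusted p = 0.025) without the filter (adjusted p = 0.059) and without the 4 min replicate 1 or the 8 min replicate 1 (adjusted p = 0.17 and 0.12). No member rose in the rbohD systemic leaf, and ZAT7, ZAT8, AZF1 and AZF2 fell, against 23.4% changed in either direction and 2030 of 17609 lowered.

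**Figure D3:**
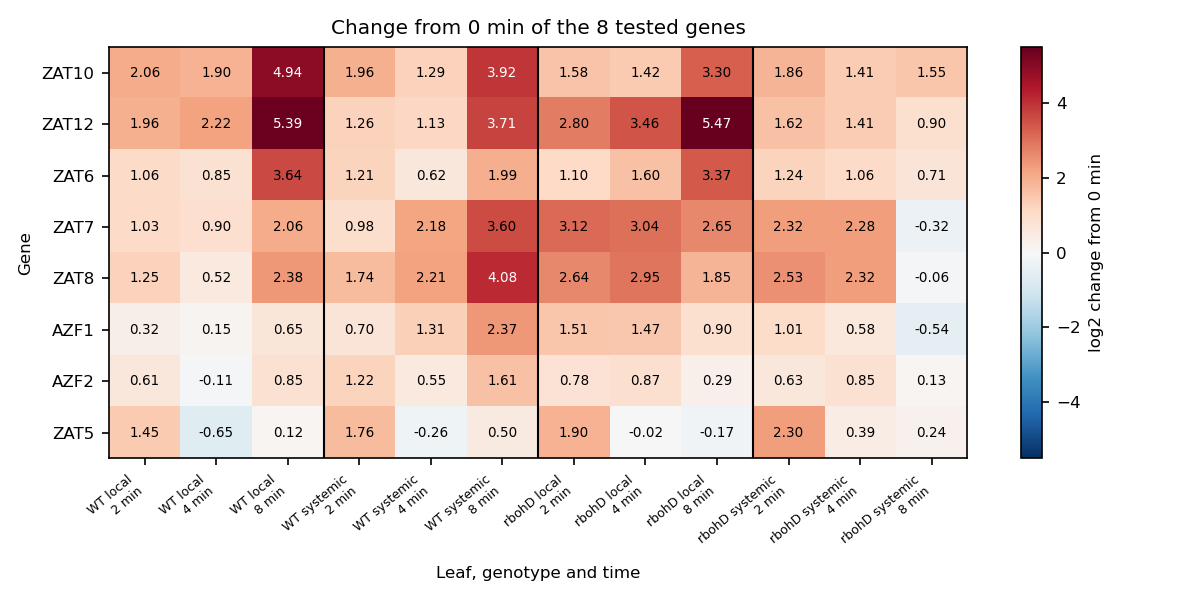
Log2 change from 0 min of the 8 tested genes (rows) at 2, 4 and 8 min in the 4 tables (columns), with red for higher and blue for lower than at 0 min; each cell is the difference of group means of 3 libraries each. The row of ZAT5 is high at 2 min in each table, and the last column, rbohD systemic at 8 min, lies between -0.54 and 1.55.

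The difference between genotypes was tested directly as the WT change minus the rbohD change, so that a larger change means a higher log2 value. In the systemic leaf at 8 min, 7 of 8 members had a larger change in WT and none a smaller one, against 35.7% of all tested genes that differed in either direction. The differences in log2 change were 3.92 for ZAT7 (SE 0.28, adjusted p = 7e-14), 2.91 for AZF1 (SE 0.30, adjusted p = 5e-10), 2.81 for ZAT12 (SE 0.37, adjusted p = 9.9e-08), 2.37 for ZAT10 (SE 0.22, adjusted p = 4.2e-11), 1.48 for AZF2 (SE 0.23, adjusted p = 2e-06) and 1.28 for ZAT6 (SE 0.24, adjusted p = 4.3e-05). ZAT8 had the largest fitted difference, 4.14 (adjusted p = 1.7e-07), but its rbohD systemic libraries at 0 and 8 min held so few reads that this size depends on the pseudocount. ZAT5 differed by 0.26 (95% interval -0.02 to 0.53, adjusted p = 0.14), and passed only with libraries rescaled to one total. The median difference of the members was 2.59, against -0.02 over all genes. At 2 min in the systemic leaf 1 member had a larger change in WT (AZF2) and 2 a smaller one (ZAT5 and ZAT7), against 55.8% of all genes, and at 4 min 1 a smaller one (ZAT5), against 18.5%. The AZF2 call at 2 min (log2 0.58, adjusted p = 0.029) was lost with DESeq2, without the filter and without any 1 of 5 libraries (adjusted p = 0.054 to 0.15).

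In the local leaf the early and late times differed. At 2 min ZAT10 had a larger change in WT, by 0.48 (SE 0.14, adjusted p = 0.005), and 5 members a smaller one, led by ZAT7 at -2.08 (SE 0.16, adjusted p = 1.5e-13) and ZAT8 at -1.39 (SE 0.34, adjusted p = 0.00086), when 54.4% of all genes differed. Mean ZAT7 levels at 0 and 2 min were 126 and 261 in WT and 26.1 and 231 in rbohD. Those of ZAT8 were 19.4 and 47.5 in WT and 4.15 and 30.8 in rbohD. ZAT8 had 3 to 5 reads in the rbohD local libraries at 0 min, so the size of its differences in this leaf depends on the pseudocount. At 4 min ZAT10 was again larger in WT, by 0.47 (SE 0.14, adjusted p = 0.0095; the call was lost with edgeR), and the other 7 were smaller, from -0.63 for ZAT5 to -2.42 for ZAT8, against 33.4% of all genes. At 8 min ZAT10 and AZF2 had a larger change in WT and ZAT7 a smaller one, against 18.5%. ZAT10 differed by 1.64 (SE 0.14, adjusted p = 8.6e-11), ZAT7 by -0.59 (SE 0.16, adjusted p = 0.0071) and AZF2 by 0.56 (SE 0.18, adjusted p = 0.03). The AZF2 call was lost with edgeR, with DESeq2 and without any 1 of 6 libraries (adjusted p = 0.059 to 0.12). For ZAT12 the local difference at 8 min was -0.08 with a 95% interval of -0.72 to 0.55, and for ZAT6 it was 0.27 with an interval of -0.03 to 0.57. The 2 min difference of ZAT12, -0.84 (adjusted p = 0.023), lost its call under 6 other settings and without any 1 of 5 libraries.

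**Figure D4:**
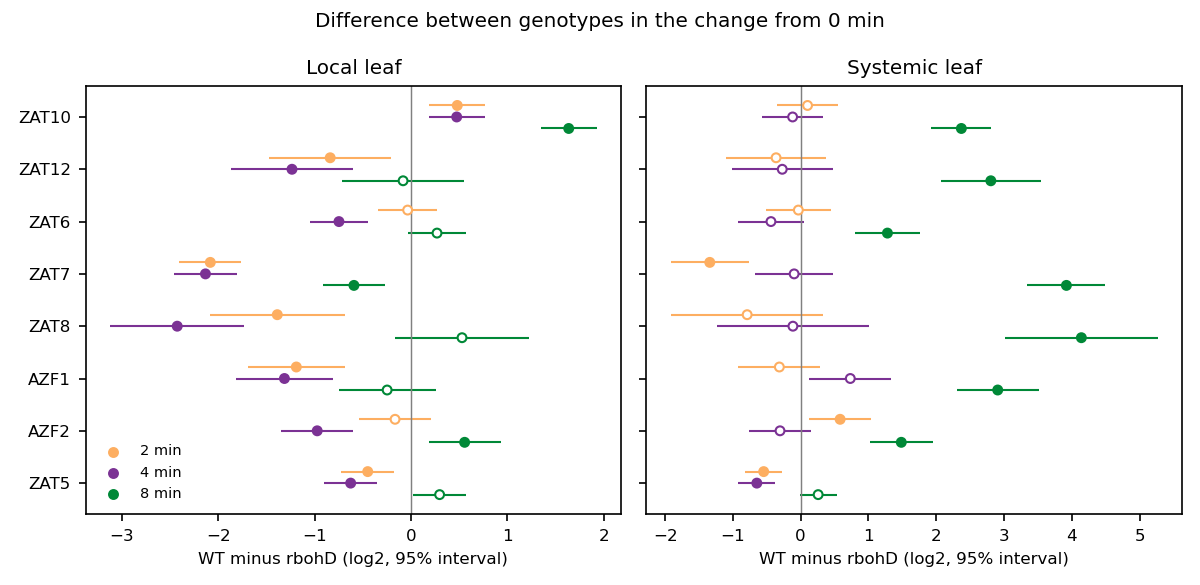
Difference between genotypes in the log2 change from 0 min (WT minus rbohD) for 8 genes, in the local leaf (left) and the systemic leaf (right), at 2 min (orange), 4 min (purple) and 8 min (green). Points are estimates from 24 libraries, bars 95% intervals, and filled points passed the test. In the systemic leaf at 8 min 7 of 8 points are filled and lie to the right of 0, and in the local leaf at 4 min 7 of 8 lie to the left.

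The leaves were compared in the same way, as the local change minus the systemic change. In WT at 8 min, ZAT12, ZAT6 and ZAT10 had a larger change in the lit leaf, by 1.69 (SE 0.26, adjusted p = 1.3e-05), 1.65 (SE 0.18, adjusted p = 1.9e-08) and 1.02 (SE 0.17, adjusted p = 5e-05). The other 5 had a larger change in the systemic leaf, against 13.8% of all genes that differed in either direction. Among them AZF1 differed by -1.72 (SE 0.23, adjusted p = 1.1e-06), ZAT8 by -1.70 (SE 0.39, adjusted p = 0.0024), ZAT7 by -1.54 (SE 0.23, adjusted p = 6.7e-06), AZF2 by -0.76 (SE 0.20, adjusted p = 0.0084) and ZAT5 by -0.38 (SE 0.12, adjusted p = 0.026). At 0 min the mean local and systemic levels were 126 and 23.9 for ZAT7, and 19.4 and 2.32 for ZAT8. They were 77.7 and 24.6 for AZF1, 91.0 and 52.6 for AZF2, and 302 and 299 for ZAT5. At 8 min ZAT7 had 530 and 295, and ZAT8 105 and 52.0. For both, a larger systemic change thus went with a lower systemic level. Levels were not tested between leaves. The ZAT5 call was lost without any 1 of 5 libraries (adjusted p = 0.059 to 0.11), and that of ZAT8 with a pseudocount of 5. In rbohD at 8 min the order was another: 6 members had a larger change in the lit leaf and none a smaller one, against 20.9% of all genes. The differences ranged from 1.44 for AZF1 (SE 0.31, adjusted p = 0.00049) to 4.57 for ZAT12 (SE 0.38, adjusted p = 2.5e-13), and included ZAT7 at 2.97 (SE 0.23, adjusted p = 2.3e-14). The 1.91 of ZAT8 was lost with edgeR and with DESeq2. ZAT7, ZAT8 and AZF1 thus had opposite signs in the genotypes, larger systemically in WT and locally in rbohD. The 3-way difference was not tested.

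At earlier times fewer members differed between leaves. In WT 1 of 8 differed at 2 min against 12% of all genes, namely AZF2, a call that was lost under 6 other settings and without any 1 of 17 libraries. With same-numbered leaves of one time as a block, ZAT5 (log2 -0.30, adjusted p = 0.089) passed as well (adjusted p = 0.029). At 4 min 7 of 8 differed against 6.35%, with ZAT12 (log2 1.09, adjusted p = 0.0078) and ZAT10 (log2 0.61, adjusted p = 0.03) larger locally and ZAT5, ZAT7, ZAT8, AZF1 and AZF2 larger systemically. Fewer members differed with edgeR (3), with DESeq2 (3), without the filter (4) or with only the groups compared (2), and ZAT7 (log2 -1.28, adjusted p = 0.0003) and AZF1 (log2 -1.16, adjusted p = 0.0011) passed in each of them. ZAT5 and AZF2 lost their calls in all 4 of these settings. The ZAT10 call was lost in each but DESeq2 and also when libraries were rescaled, ZAT12 with edgeR, with DESeq2 and with only the groups compared, and ZAT8 with the last 2 of these and with a pseudocount of 5. With 1 library left out, ZAT5 and ZAT10 each lost the call without any 1 of 7 libraries and AZF2 without any 1 of 18. In rbohD, ZAT7 and ZAT12 differed at 2 min against 25.8% of all genes, and ZAT7, ZAT12 and AZF1 at 4 min against 16.6%, all larger in the lit leaf. ZAT12 at 4 min, 2.05 (SE 0.38, adjusted p = 8.9e-05), was the one call among these that no other setting or left-out library removed.

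**Figure D5:**
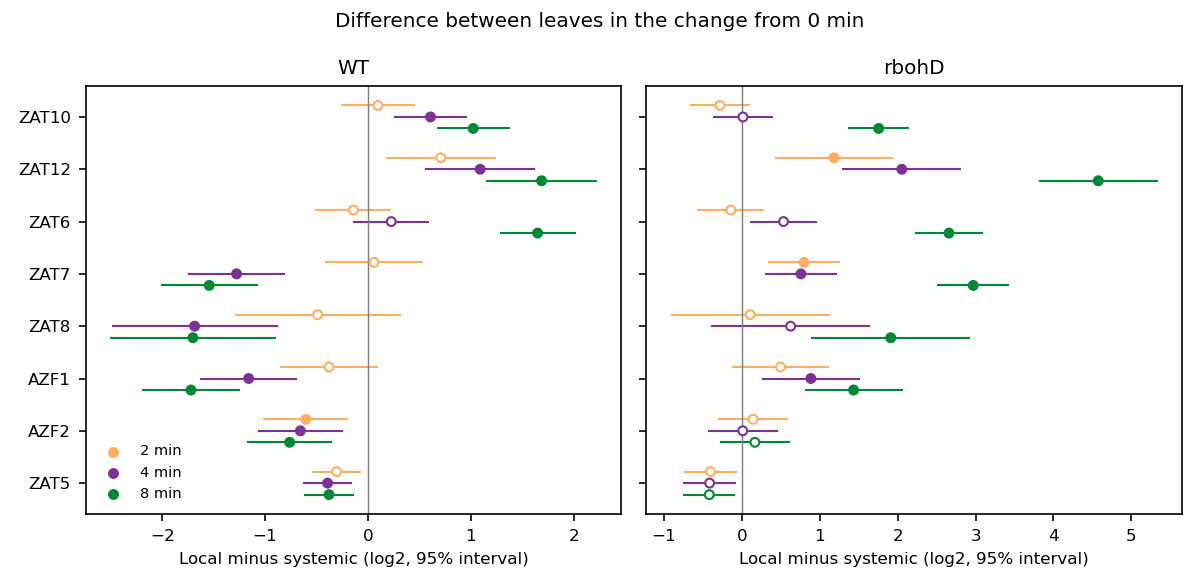
Difference between leaves in the log2 change from 0 min (local minus systemic) for 8 genes, in WT (left) and rbohD (right), at 2 min (orange), 4 min (purple) and 8 min (green). Points are estimates from 24 libraries, bars 95% intervals, and filled points passed the test. At 8 min ZAT7, ZAT8 and AZF1 lie to the left of 0 in WT and to the right in rbohD.

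Levels of different genes were compared per kilobase of transcript within a group, as a description. In the WT local leaf at 0 min ZAT5 was highest with 211 normalized counts per kb, followed by ZAT7 with 126 and ZAT6 with 65.4, and ZAT12 had 19.2, the lowest of the 8 tested genes. At 8 min ZAT10 was highest with 1940, followed by ZAT12 with 827 and ZAT6 with 824, and ZAT5 had 229.8, below ZAT7 with 528. In the WT systemic leaf at 8 min ZAT10 had 645 per kb, ZAT5 296 and ZAT7 294. In the rbohD systemic leaf at 8 min ZAT10 had 98.3 and ZAT5 55.1. ZAT12 and ZAT6 in the WT local leaf and ZAT5 and ZAT7 in the WT systemic leaf were not separated beyond the spread of their libraries at 8 min.

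Across the 12 mean changes (3 times in 4 tables), the members fell into patterns, given as descriptions since the changes of a table share their 0 min libraries. ZAT6, ZAT10 and ZAT12 correlated with one another at r = 0.80 to 0.93. ZAT7, ZAT8, AZF1 and AZF2 did so at r = 0.56 to 0.94, and pairs between these sets had r = 0.14 to 0.52. ZAT5 had r between -0.30 and 0.38 with every other member. These sets were formed after the values were seen. Among 14605 other genes tested in all tables with a mean of at least 50 normalized counts, the genes most like ZAT10 were AT4G27280 (r = 0.98), SZF1 (salt-inducible zinc finger 1, r = 0.97) and ERF104 (ethylene response factor 104, r = 0.96). Those most like ZAT12 were PUB17 (plant U-box 17, r = 0.94), BI1 (Bax inhibitor 1, r = 0.94) and AT1G21550 (r = 0.93). Those most like ZAT6 were AGP1 (arabinogalactan protein 1), AT1G66090 and AT4G17250 (r = 0.94 each).

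Of 7 other genes of the ZAT and AZF names (AZF3, ZAT1, ZAT2, ZAT3, ZAT4, ZAT9 and ZAT14), 4 passed the filter in the WT tables and 3 in the rbohD tables. ZAT9 was the one that rose in WT, with a log2 change of 0.96 (SE 0.26, adjusted p = 0.0028) in the local and 0.97 (SE 0.26, adjusted p = 0.0031) in the systemic leaf at 2 min. At 8 min it was 0.76 (adjusted p = 0.023) and 0.86 (adjusted p = 0.011) above 0 min, and at 4 min 0.79 (adjusted p = 0.029) above it in the systemic leaf. ZAT14 fell in the WT systemic leaf at 4 min (log2 -0.84, adjusted p = 0.011) and AZF3 in the rbohD local leaf at 2 min (log2 -1.06, adjusted p = 0.0021). No other change from 0 min in this list passed the test.

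The genes tied to the members as kinases, corepressors or downstream genes numbered 16 with RBOHD, the mutated gene, counted among them. Of these, 16 were tested in local and 14 in systemic leaves. The counts below include RBOHD, also where WT is compared with rbohD, in which this gene is disrupted. At 8 min 11 rose in the WT local leaf, 9 in the WT systemic, 9 in the rbohD local (with 1 lowered) and 3 in the rbohD systemic leaf, when 22.9%, 21.8%, 19.1% and 7.51% of all tested genes were raised. In the systemic leaf at 8 min 9 of 14 had a larger change in WT than in rbohD and none a smaller one, with a median log2 difference of 0.22, against 35.7% of all genes that differed in either direction. At 2 min in that leaf 3 had a larger change in WT and 8 a smaller one, with a median of -0.24, against 55.8% of all genes. The kinase MPK3 rose in both WT leaves at 8 min (log2 1.08, SE 0.04, and 1.02, SE 0.05), and its systemic change was 1.11 larger in WT (SE 0.07, adjusted p = 3.1e-16). The changes at 8 min of corepressors that passed the test lay between -0.22 and 0.35. TPL, the founding member of the TOPLESS family, was 0.33 and 0.35 above 0 min at 8 min in WT local and systemic leaves on the log2 scale, and its systemic change was 0.21 larger in WT (SE 0.05, adjusted p = 0.00079).

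Among the downstream genes, APX2, a cytosolic ascorbate peroxidase known for induction by high light, had its highest counts in the lit leaf at 8 min. It had 27.3, 49.01 and 33.1 normalized counts in the WT local leaf at 8 min and 15.96, 16.2 and 19.2 in the rbohD local leaf, against at most 4.70 in any other library. CBF2, a regulator of cold acclimation, had 11.4, 17.2 and 19.9 at 0 min and 331, 308 and 309 at 8 min in the WT local leaf, and 10.8, 8.84 and 11.5 and 121, 127 and 133 in the WT systemic leaf. In rbohD systemic leaves it went from 15.9, 31.4 and 13.2 to 60.2, 59.8 and 54.2. The CBF2 rise at 8 min was called in all 4 tables (log2 4.24, 3.50, 2.88 and 1.57 for WT local, WT systemic, rbohD local and rbohD systemic), and the systemic rise was 1.93 larger in WT (SE 0.33, adjusted p = 1.4e-05). WRKY25, whose transcript depends on ZAT12 under oxidative stress, rose at 8 min by 1.68 in the WT systemic leaf (SE 0.08, adjusted p = 7.7e-14) and differed from rbohD by 1.64 (SE 0.12, adjusted p = 6.4e-14). APX1 was 0.39 and 0.35 above 0 min in WT local and systemic leaves at 8 min, and rose most in rbohD at 2 min, by 1.58 in the local (SE 0.04, adjusted p = 3.1e-25) and 1.05 in the systemic leaf (SE 0.03, adjusted p = 8.2e-27).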

How the data were processed

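Stranded poly(A) libraries were sequenced as single reads of 75 bases. Per the labels and the study's methods, the authors checked reads with FastQC 0.11.7, aligned them to TAIR10 with STAR 2.4.0.1, allowing reads that map to several places, and divided counts by DESeq2 1.20.0 size factors. The counting tool is not given in the sources used here. The deposited values are such a normalized signal, in 4 tables of 32833 genes and 12 libraries, each normalized on its own. Dividing by 1 read's worth gave whole reads for 100% of values in every library, within a tolerance of 0.1.

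Under R 4.3.3, the main two-sided test was limma 3.58.1 on log2(value + 1), its prior variance following mean expression, over genes that reached 10 normalized counts in 3 or more libraries of each table fitted. Changes used the 12 libraries of a table, and differences between genotypes or leaves the 24 libraries of a pair of tables. A pseudocount of 1 understates the change of low genes. A member was called at a Benjamini-Hochberg adjusted p under 0.05 over all genes tested. On recovered reads, edgeR 4.0.16 (quasi-likelihood, TMM) and DESeq2 1.42.0 served as alternatives, beside a pseudocount of 5, no filter, libraries rescaled to one total, only the groups compared, a replicate block and leaving out each library. The scripts were tested on simulated data. Replicate pairs differed by more than counting error (chi-square per degree of freedom 1.26 to 5.24 in 48 pairs). A floor is 3 reads per library and covers counting error only.

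The 10 members and the lists were chosen with earlier results of these data known. All members are named, RBOHD is named as the mutated gene, and the 3 genes most like ZAT10, ZAT12 and ZAT6 were ranked by Pearson correlation over 12 mean changes. The annotation's symbols gave AZF3 alone as a further member of these names, beside a zinc transporter with the synonym ZAT1 that was set aside, so a list of 7 loci was used. Coding sequences were aligned globally with Biopython 1.88 (match 1, mismatch -1, gap opening -5, gap extension -1). Positions and sequences are those of TAIR10.1 in RefSeq and not of the deposited tables, which hold none. Motifs were searched on both strands.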

Additional observations from a re-analysis of the deposited data

Results flagged for a closer look

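A difference between groups under the same contrast passed the interaction test (limma, adjusted p under 0.05 over all genes tested) for the following members, with the difference in log2 change in parentheses. Between genotypes, as WT minus rbohD, these were in the local leaf ZAT5 (-0.45), ZAT7 (-2.08), ZAT8 (-1.39), ZAT10 (0.48), ZAT12 (-0.84) and AZF1 (-1.19) at 2 min. They were ZAT5 (-0.63), ZAT6 (-0.75), ZAT7 (-2.13), ZAT8 (-2.42), ZAT10 (0.47), ZAT12 (-1.23), AZF1 (-1.31) and AZF2 (-0.97) at 4 min, and ZAT7 (-0.59), ZAT10 (1.64) and AZF2 (0.56) at 8 min. In the systemic leaf they were ZAT5 (-0.55), ZAT7 (-1.34) and AZF2 (0.58) at 2 min, ZAT5 (-0.65) at 4 min, and ZAT6 (1.28), ZAT7 (3.92), ZAT8 (4.14), ZAT10 (2.37), ZAT12 (2.81), AZF1 (2.91) and AZF2 (1.48) at 8 min. Genotype and experiment cannot be told apart in any of these.

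Between leaves, as local minus systemic, the members that differed in WT were AZF2 (-0.60) at 2 min, ZAT5 (-0.39), ZAT7 (-1.28), ZAT8 (-1.68), ZAT10 (0.61), ZAT12 (1.09), AZF1 (-1.16) and AZF2 (-0.66) at 4 min, and ZAT5 (-0.38), ZAT6 (1.65), ZAT7 (-1.54), ZAT8 (-1.70), ZAT10 (1.02), ZAT12 (1.69), AZF1 (-1.72) and AZF2 (-0.76) at 8 min. In rbohD they were ZAT7 (0.80) and ZAT12 (1.18) at 2 min, ZAT7 (0.76), ZAT12 (2.05) and AZF1 (0.89) at 4 min, and ZAT6 (2.66), ZAT7 (2.97), ZAT8 (1.91), ZAT10 (1.76), ZAT12 (4.57) and AZF1 (1.44) at 8 min. ZAT7, ZAT8 and AZF1 at 8 min had opposite signs in WT and rbohD, and that contrast of contrasts was not tested.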

How the results depend on the processing

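No member result that passed the test reversed its direction under any setting tried. Of 256 member results per setting, the call (passed or not, with its direction if passed) held in 241 with DESeq2 and in 241 with edgeR. It held in 245 with libraries rescaled to one total, 246 without the filter, 245 with only the groups compared and 249 with a pseudocount of 5. With 1 library left out it held in 4095 of 4224. Directions of results that did not pass are not covered by these counts. Counts of members called that moved past 1.5 times were these. From 2 to 4 min in the WT local leaf 3 became 7 when rescaled. In the rbohD systemic leaf, 3 at 8 min became 1 to 3 with 1 library left out, and 2 from 2 to 4 min became 1 to 2. Between genotypes in the systemic leaf at 4 min 1 became 1 to 2 with 1 library left out. Between leaves in WT at 2 min 1 became 0 without the filter, when rescaled, with edgeR, with DESeq2 and with only the groups compared, 2 with the replicate block, and 0 to 2 with 1 library left out. At 4 min 7 became 4 without the filter, 3 with edgeR, 3 with DESeq2, 2 with only the groups compared, and 4 to 7 with 1 library left out. Between leaves in rbohD 2 at 2 min became 1 with edgeR, 0 with DESeq2 and 1 to 3 with 1 library left out, and 3 at 4 min became 1 with edgeR, 1 with DESeq2 and 1 to 4. The cause was not tested.

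Samples of the same number did not all deviate together across the times of a table (2 of 18 pairs above r = 0.1 in each WT table, 0 in the rbohD tables). Between the local and systemic leaves of one time, which the labels do not tie to the same plants, same-numbered pairs had a median r of 0.056 in WT (1 of 12 above 0.1, against a median of -0.027 for different numbers) and 0.014 in rbohD (0 of 12), so the numbers were not taken to pair libraries. With the replicate block 254 of 256 results held, and 2 were gained: the ZAT6 fall from 2 to 4 min in the WT local leaf (adjusted p = 0.044) and the ZAT5 difference between WT leaves at 2 min (adjusted p = 0.029). Depth limits ZAT11, ZAT18, ZAT8 at 0 min and ZAT12 at 0 min, which rested on few reads.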
